A study of Mus musculus with 12 samples.

Results

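The interferon regulatory factors (IRFs) were read in RAW264.7 cells, a mouse macrophage line, with and without a CRISPR deletion that the labels name NRE1. Members were taken by gene symbol from the deposited gene count table. All 9 symbols sought were present, out of 12483 genes: the IRF family genes Irf1, Irf2, Irf3, Irf4, Irf5, Irf7, Irf8 and Irf9, and Irf2bp2. Irf2bp2 encodes an IRF2-binding corepressor and not a family factor, since it lacks the DNA-binding domain of the IRFs. There were 4 groups of 3 libraries, 1 library per clone and condition: KO clones 1A, 1B and 2 6 h after addition of 10 ng/mL LPS and 50 ng/mL IFN-gamma, the same KO clones in medium, WT clones 1, 2 and 3 after the same stimulation, and the same WT clones in medium. LPS, from the outer membrane of bacteria, signals through Toll-like receptor 4, and IFN-gamma is made by T and NK cells.

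Per the labels' protocols, constructs against both flanks of NRE1 were delivered together, cells carrying both were selected on GFP and a puromycin marker, and lines were grown from single cells. The same text is given for KO and WT libraries, and each line is 1 clone. The labels do not expand NRE1, give its coordinates or say how KO 1A and KO 1B are related, so the deletion could not be read in the counts. Should KO 1A and KO 1B share an origin, 2 independent clones make up the KO groups. P-values weigh a difference between group means against the spread between clones within groups, shared over all 12 libraries. Unless a clone block is named, the 2 libraries of a clone are not paired.

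IRFs share an amino-terminal DNA-binding domain that contacts the interferon-stimulated response element (ISRE). IRF3, IRF5 and IRF7 lie downstream of pattern receptors such as Toll-like receptor 4 and, once phosphorylated, switch on interferon and inflammatory genes. IRF9 is part of the complex ISGF3, which answers type I interferon, while Irf1 is switched on early after IFN-gamma. IRF8 and IRF4 bind DNA weakly alone and act with partners such as PU.1, and IRF2 competes with IRF1 for the same elements.

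Library totals ran from 10624591 to 14388590 counts. All 10 macrophage markers sought were measured, and their summed level was 6289.6 to 12398 CPM in stimulated KO libraries, 4730.2 to 14024 CPM in KO libraries in medium, 9836 to 19789.5 CPM in stimulated WT libraries and 8465 to 19136 CPM in WT libraries in medium. CPM are counts scaled to a common, TMM-adjusted library size. Lyz2 was the most abundant of the markers. Its level was 4255 ± 2710 CPM in stimulated KO clones and 10905 ± 4299 in stimulated WT clones (SD, n = 3 each). In the edgeR test below, 7 of the 10 rose and 2 fell with stimulation in KO clones. In WT clones 5 rose and 1 fell. That test called 54.3% of all genes in KO clones and 47.4% in WT clones. Csf1r fell and Cd14 rose in each genotype. Mertk had 2 counts over KO medium and 9 over WT medium libraries. None of the 15 T, NK, B, fibroblast and epithelial markers sought was measured. The medium library of WT clone 3 stands apart for Irf7 and Irf9. It held the highest level of the 6 medium libraries for 6 of the 9 members, against 18.9% of all genes tested. Some of these were near ties, such as Irf8 at 77.2 CPM in WT 3 and 76.5 CPM in WT 2. At a margin of at least 2-fold it was highest for 3 of the 9 members, against 0.744% of all genes. WT responses of members that move by over 1.5 times without that clone are given both ways.

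Stimulation changed 8 of the 9 members in each genotype. Irf1, Irf2, Irf4, Irf5, Irf7, Irf8 and Irf9 rose, Irf2bp2 fell, and Irf3 did not pass the test, at a Benjamini-Hochberg adjusted p below 0.05 in edgeR's quasi-likelihood test. Among all 12231 genes tested, 54.3% were called in KO clones (26.7% higher and 27.6% lower) and 47.4% in WT clones (23.8% higher and 23.6% lower). The same 8 members showed no overlap between stimulated and medium libraries in KO clones and in WT clones, where 70.0% and 50.5% of all genes showed none. No member was called between KO and WT clones in either condition.

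**Figure D1:**
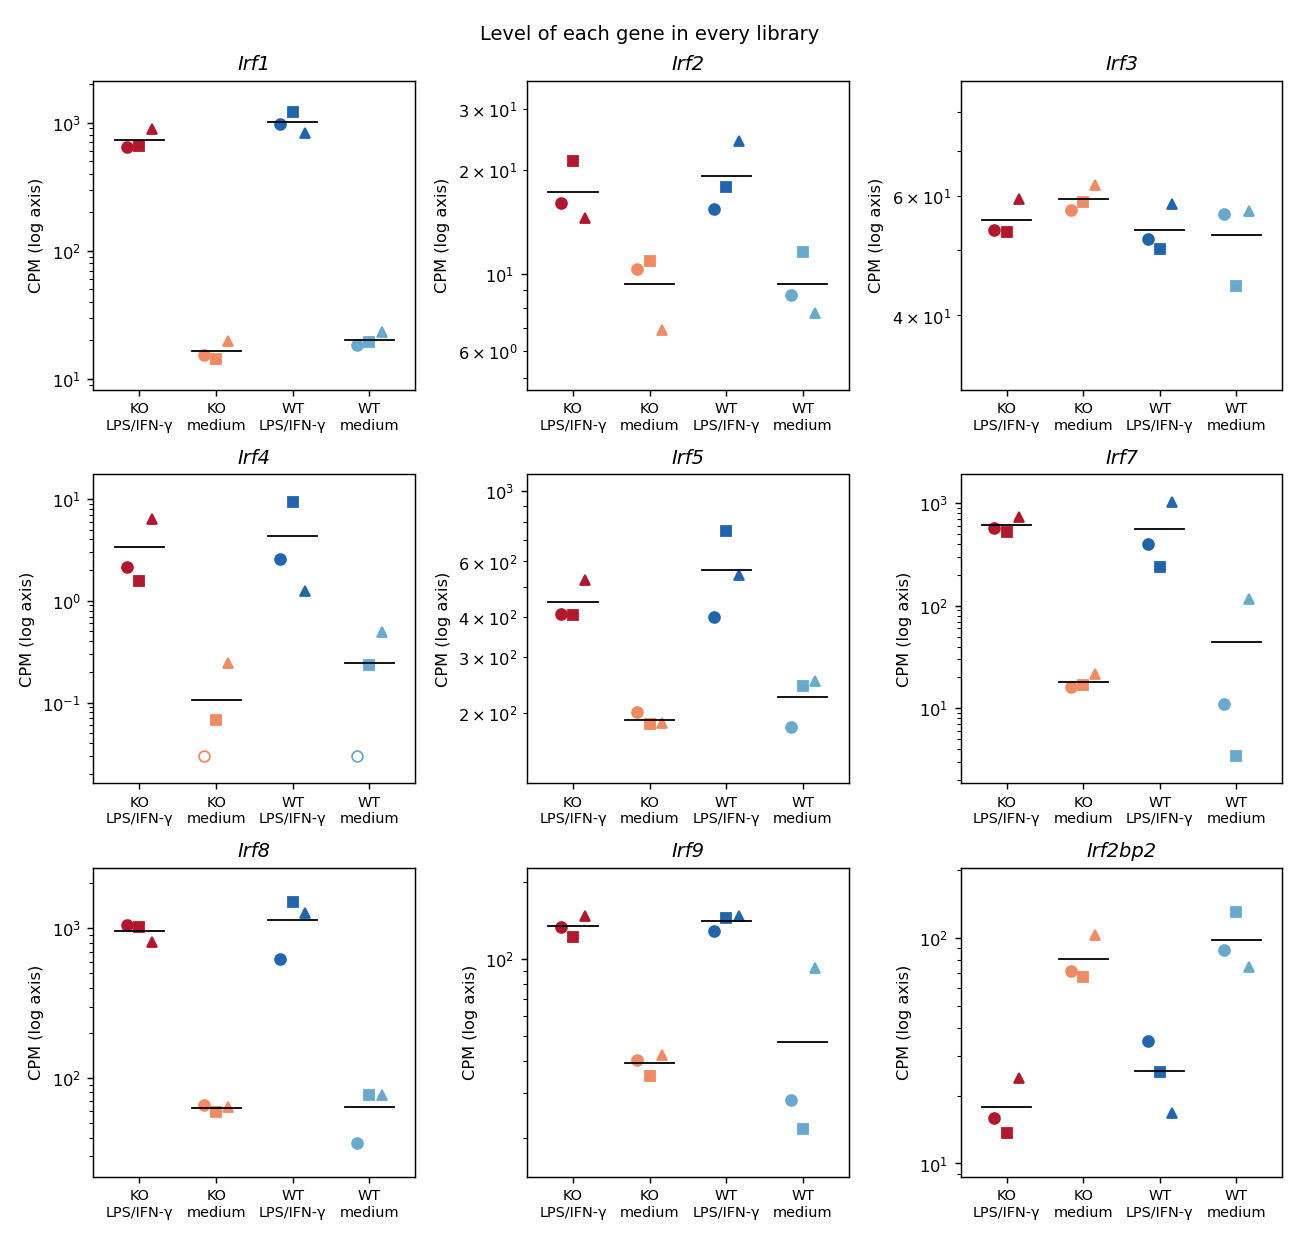
Level of each member in the 12 libraries, in CPM on a log axis, with stimulated KO, KO in medium, stimulated WT and WT in medium side by side. Circles, squares and triangles are clones KO 1A, 1B and 2 or WT 1, 2 and 3, and black lines are group means. Open circles for Irf4 mark libraries with 0 counts, drawn at the floor of the axis. Irf1, Irf7 and Irf8 part widely by stimulation, the Irf3 groups overlap, Irf2bp2 is lower under stimulation, and Irf7 in WT medium spreads from 3.45 to 118 CPM.

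Levels were compared between members per kilobase of exon, as mean ± SD over 3 clones. Exon length was merged over all annotated transcripts of a gene, and the transcripts expressed here may be shorter. Clone ranges do not reflect this, so close ranks between members also depend on the annotation. In medium Irf5 was highest in both genotypes, at 65.5 ± 3.12 CPM per kilobase in KO clones and 77.4 ± 13.4 in WT clones, with no library overlapping the next member. Irf3 and Irf2bp2 followed in KO clones, at 17.3 ± 0.748 and 15.9 ± 3.92 CPM per kilobase, and their ranges overlapped. The same pair came next in WT clones, at 19.3 ± 5.76 for Irf2bp2 and 15.3 ± 2.09 for Irf3, again overlapping. Below these, KO clones in medium held Irf8, Irf9, Irf7 and Irf1 in that order, between 8.92 ± 0.521 and 4.16 ± 0.695 CPM per kilobase, and of their neighbouring pairs Irf7 and Irf1 overlapped. In WT clones in medium Irf7, Irf8, Irf9 and Irf1 all overlapped their neighbours, with Irf7 at 11.7 ± 16.9. Irf2 and then Irf4 were lowest in all 4 groups.

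After stimulation the order was led by a different member. Irf1 was highest, at 184 ± 35.0 CPM per kilobase in KO clones and 252 ± 47.8 in WT clones. Irf7, Irf5 and Irf8 came next in KO clones, at 161 ± 29.4, 154 ± 23.4 and 137 ± 19.3. The order below Irf1 was Irf5, Irf8 and Irf7 in WT clones, at 194 ± 60.7, 161 ± 64.5 and 147 ± 110.0. In both genotypes each of these top 4 overlapped its neighbour within the top 4, so their order was not resolved by 3 clones. A gap then separated them from Irf9, at 24.9 ± 2.28 CPM per kilobase in KO clones and 26.0 ± 1.82 in WT clones. Irf3 stood below Irf9 in both genotypes, at 16.1 ± 1.05 and 15.6 ± 1.27 in KO and WT clones.

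**Figure D2:**
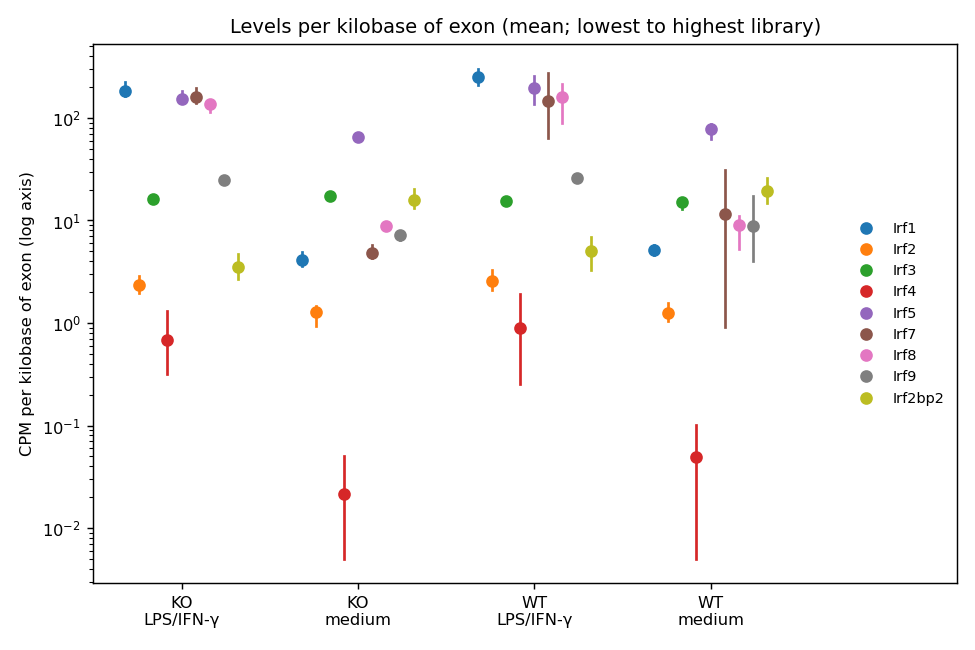
Mean level of each member in CPM per kilobase of exon on a log axis in the 4 groups, with whiskers from the lowest to the highest of 3 clones. The Irf4 whiskers in medium end at the floor of the axis because 1 library in each medium group is at 0. Irf5 leads in medium, and Irf1, Irf7, Irf5 and Irf8 lie close together at the top under stimulation.

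Irf1 (ENSMUSG00000018899; chr11:53770014-53778374, plus strand) encodes the activator that carries much of the IFN-gamma response of macrophages. In stimulated KO clones 1A, 1B and 2, Irf1 had 644, 659 and 892 CPM, against 15.5, 14.4 and 19.7 CPM in the same clones in medium. In stimulated WT clones 1, 2 and 3 it had 970.2, 1207 and 831 CPM, against 18.4, 19.4 and 23.1 CPM in medium. Every stimulated library lay far above every medium library. Irf1 rose by a log2 fold change of 5.47 ± 0.22 (SE) in KO clones (adjusted p = 5.2e-08) and 5.62 ± 0.22 in WT clones (adjusted p = 4.3e-08), which placed it at or above 98.3% and 98.6% of all genes in KO and WT clones. Within clones the ratio of stimulated to medium CPM was 41.5, 45.7 and 45.4 in KO 1A, 1B and 2, and 52.7, 62.1 and 35.9 in WT 1, 2 and 3. The WT clones spanned the ratios of the KO clones.

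Irf2 (ENSMUSG00000031627; chr8:46739732-46847458, plus strand) encodes a factor that occupies the same elements as IRF1 and often represses them. KO clones 1A, 1B and 2 had 16.1, 21.2 and 14.6 CPM of Irf2 under stimulation, against 10.3, 10.9 and 6.91 CPM in medium. WT clones 1, 2 and 3 had 15.4, 17.8 and 24.2 CPM under stimulation, against 8.69, 11.6 and 7.71 CPM in medium. The groups did not overlap within either genotype, but the gap was small beside that of Irf1. Irf2 rose by 0.88 ± 0.25 on the log2 scale in KO clones (adjusted p = 0.011) and 1.04 ± 0.25 in WT clones (adjusted p = 0.0052). The KO call ended without KO 1B (0.83, adjusted p = 0.056) and with library totals as the only scaling (0.50, adjusted p = 0.1), which moves the median of all genes to -0.39 in KO clones and -0.37 in WT clones. The WT call ended without WT 3 (0.71, adjusted p = 0.065). Its ratios by clone were 1.55, 1.95 and 2.11 in KO 1A, 1B and 2, and 1.77, 1.54 and 3.14 in WT 1, 2 and 3, with WT 3 the highest.

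**Figure D3:**
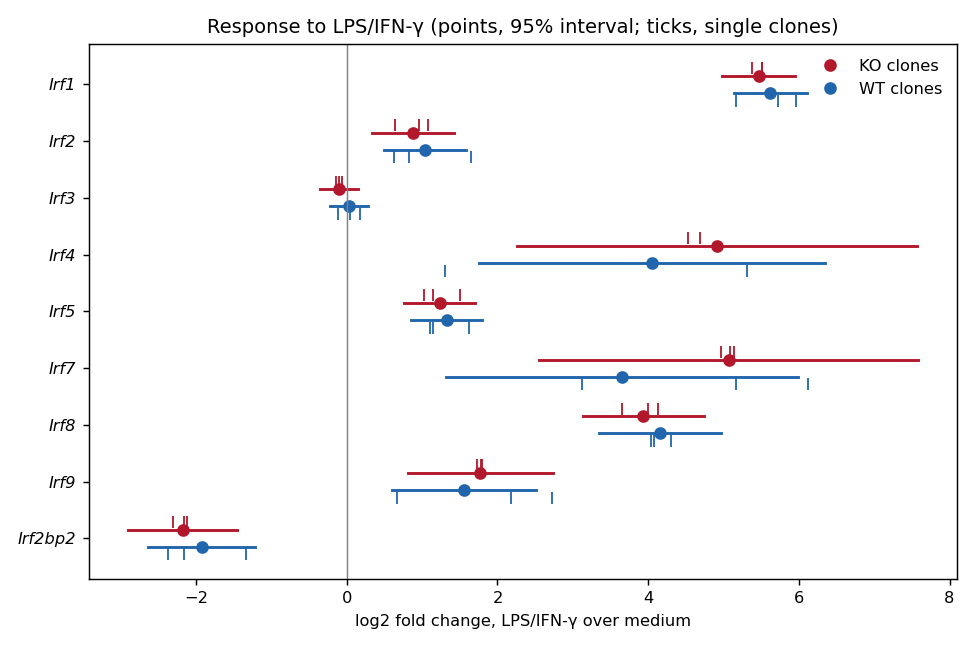
Log2 fold change of each member, LPS/IFN-gamma against medium, in KO clones and in WT clones. Points are the edgeR estimates, lines are 95% intervals and ticks are single clones (Irf4 clones with 0 counts in medium have no tick). Irf1, Irf4, Irf7 and Irf8 have the highest estimates, the intervals of Irf3 span 0, and Irf2bp2 lies below 0 in both genotypes.

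The promoters of the 9 members were read from RefSeq (build GRCm38.p6), as 12 windows from 250 bases before to 50 after a start of transcription. They were searched on both strands for the ISRE (GAAA, any 2 bases, GAAA), the STAT-bound GAS element (TTCNNNGAA), the ETS-IRF composite element bound by PU.1 with IRF8 or IRF4 (GGAA, any 2 bases, GAAA) and the NF-kB element. Of 32851 windows of the same length for all genes, 3.44% hold the ISRE letters, 8.3% GAS, 2.72% ETS-IRF and 8.46% NF-kB. Irf1, Irf2 and Irf8 each have a window with a match, and these 3 genes rose in both genotypes. Their 250 bases before the start are shown because they are the promoters of members that hold any of the searched letters; all run 5′ to 3′ on the plus strand, with capitals marking ISRE, GAS and NF-kB matches.
Irf1 chr11:53769764-53770013: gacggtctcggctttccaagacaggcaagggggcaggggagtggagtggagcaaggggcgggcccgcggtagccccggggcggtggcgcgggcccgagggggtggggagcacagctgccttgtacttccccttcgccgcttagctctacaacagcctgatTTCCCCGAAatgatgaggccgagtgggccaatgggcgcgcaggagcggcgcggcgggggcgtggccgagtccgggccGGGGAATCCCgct
Irf2 chr8:46739495-46739744: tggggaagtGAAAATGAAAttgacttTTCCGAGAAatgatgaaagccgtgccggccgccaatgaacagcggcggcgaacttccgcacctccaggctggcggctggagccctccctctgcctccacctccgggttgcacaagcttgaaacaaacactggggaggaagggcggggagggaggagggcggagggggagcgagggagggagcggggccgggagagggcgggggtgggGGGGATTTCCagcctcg
Irf8 chr8:120736108-120736357: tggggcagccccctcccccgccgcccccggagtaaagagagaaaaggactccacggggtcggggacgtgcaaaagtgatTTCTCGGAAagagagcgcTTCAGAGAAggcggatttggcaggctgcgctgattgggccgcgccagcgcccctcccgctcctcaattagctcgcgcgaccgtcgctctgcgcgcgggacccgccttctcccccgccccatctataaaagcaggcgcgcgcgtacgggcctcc

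In the Irf1 promoter the GAS match TTCCCCGAA begins at position -90 from the start and the NF-kB match at -13. The Irf2 promoter holds the ISRE match GAAAATGAAA at -241, the GAS match TTCCGAGAA at -224 and an NF-kB match at -17. An ETS-IRF match in Irf2, at bases 4 to 13 of the window, overlaps the ISRE match at bases 10 to 19. Irf8 holds 2 GAS matches, TTCTCGGAA at -171 and TTCAGAGAA at -153. The other windows hold none of these letters, including those of Irf7 and Irf9, which also rose. A match is a run of letters and no binding was measured.

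Irf3 (ENSMUSG00000003184; chr7:44997648-45002848, plus strand) encodes the factor that is stored in the cytoplasm and activated by phosphorylation, so its transcript need not change for it to act. Irf3 levels in KO 1A, 1B and 2 were 53.4, 53.2 and 59.5 CPM after LPS/IFN-gamma, against 57.3, 58.9 and 62.3 CPM in medium. Those in WT 1, 2 and 3 were 51.9, 50.2 and 58.5 CPM after LPS/IFN-gamma, against 56.4, 44.2 and 57.0 CPM in medium. The stimulated and medium libraries overlapped in both genotypes. Irf3 had a log2 fold change of -0.10 ± 0.11 in KO clones (adjusted p = 0.46) and 0.03 ± 0.11 in WT clones (adjusted p = 0.87). The 95% interval was -0.36 to 0.15 in KO clones and -0.23 to 0.28 in WT clones. With library totals alone, Irf3 was called lower in KO clones (-0.48, adjusted p = 0.0038) and in WT clones (-0.33, adjusted p = 0.029), close to the shift of all genes under that scaling.

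Irf7 (ENSMUSG00000025498; chr7:141262706-141266481, minus strand) encodes the inducible counterpart of IRF3 that amplifies type I interferon. In stimulated KO clones 1A, 1B and 2, Irf7 had 571, 522 and 734 CPM, against 16.2, 16.7 and 21.6 CPM in the same clones in medium. In stimulated WT clones 1, 2 and 3 it had 399, 241 and 1026 CPM, against 11.1, 3.45 and 118 CPM in medium. Stimulated libraries lay above medium libraries within each genotype, while WT 3 in medium stood well above the other 5 medium libraries. Irf7 rose by 5.07 ± 1.13 on the log2 scale in KO clones (adjusted p = 0.0036) and 3.65 ± 1.05 in WT clones (adjusted p = 0.016). Because the spread is shared over all 12 libraries, the SE in KO clones also reflects the WT clones. A fit with a term for each clone compares each clone with itself. It gave 5.06 ± 0.55 in KO clones (adjusted p = 0.00031) and 4.60 ± 0.56 in WT clones (adjusted p = 0.00063). Without WT 3 the WT value was 5.45 ± 0.52 (adjusted p = 0.00013), and without WT 1 the WT call ended (3.38, adjusted p = 0.057). The ratio by clone was 35.2, 31.3 and 34.0 in KO 1A, 1B and 2, against 36.0, 69.9 and 8.72 in WT 1, 2 and 3. The ratios of the 3 KO clones lay close together, and the WT clones held both the highest and the lowest ratio.

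Irf5 (ENSMUSG00000029771; chr6:29526625-29541871, plus strand) encodes a factor that acts downstream of Toll-like receptors on genes for inflammatory cytokines. KO clones 1A, 1B and 2 had 409.8, 407 and 526 CPM of Irf5 under stimulation, against 201, 184 and 186 CPM in medium. WT clones 1, 2 and 3 had 399.7, 750.5 and 544 CPM under stimulation, against 180.3, 243 and 252 CPM in medium. Every stimulated library exceeded every medium library of its genotype. Irf5 rose by 1.23 ± 0.21 on the log2 scale in KO clones (adjusted p = 0.00064) and 1.33 ± 0.21 in WT clones (adjusted p = 0.00052). Ratios by clone were 2.04, 2.21 and 2.83 in KO 1A, 1B and 2, and 2.22, 3.09 and 2.16 in WT 1, 2 and 3. Of its exon length, 14.1% overlaps Tnpo3 on the opposite strand, and Tnpo3 rose by 0.44 in KO clones and 0.35 in WT clones. Whether counting used strand is not given in the sources used here, so reads of the shared stretch cannot be assigned to 1 gene.

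Irf8 (ENSMUSG00000041515; chr8:120736358-120756694, plus strand) encodes the lineage factor of monocytes, macrophages and dendritic cells that pairs with PU.1. Irf8 levels in KO 1A, 1B and 2 were 1056, 1028 and 808 CPM after LPS/IFN-gamma, against 65.9, 58.8 and 64.1 CPM in medium. Those in WT 1, 2 and 3 were 625, 1504 and 1269 CPM after LPS/IFN-gamma, against 36.9, 76.5 and 77.2 CPM in medium. No stimulated library came near a medium library in either genotype, and WT 1 had the lowest level of the WT clones in each condition. Irf8 rose by 3.94 ± 0.36 on the log2 scale in KO clones (adjusted p = 1.2e-05) and 4.16 ± 0.37 in WT clones (adjusted p = 1.2e-05). Ratios by clone were 16, 17.5 and 12.6 in KO 1A, 1B and 2, and 17.0, 19.7 and 16.4 in WT 1, 2 and 3. Dendritic cell markers, another setting of IRF8, moved too. Of 6 sought, 4 were measured, with a summed level of 9.85 to 12.4 CPM in stimulated KO libraries, 2.17 to 3.25 CPM in KO medium, 14.3 to 36.6 CPM in stimulated WT libraries and 1.30 to 15.3 CPM in WT medium. Xcr1 and Clec9a rose in each genotype and Zbtb46 and Siglech were not called. Xcr1 had 240 counts over 3 stimulated KO libraries and 1 over KO medium, and 578 over stimulated WT and 4 over WT medium libraries. Clec9a had 63 and 4 in KO clones, and 139 and 8 in WT clones. With the clone block Siglech was called lower in each genotype (adjusted p = 0.0042 in KO clones and 0.03 in WT clones). The part of the dendritic cell markers in the Irf8 result was not tested. In bulk RNA, more cells of a kind and more RNA per cell cannot be told apart.

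Irf4 (ENSMUSG00000021356; chr13:30749226-30766976, plus strand) encodes the closest relative of IRF8, best known in lymphocytes and in alternatively activated macrophages. It was the least abundant member, so its counts are given. In stimulated KO clones 1A, 1B and 2, Irf4 had 21, 16 and 58 counts, against 0, 1 and 3 in medium. In stimulated WT clones 1, 2 and 3 it had 28, 92 and 13 counts, against 0, 3 and 8 in medium. As CPM, its mean was 3.35 ± 2.61 in stimulated KO clones and 0.105 ± 0.127 in KO medium (SD, n = 3 each), and 4.37 ± 4.34 in stimulated WT clones and 0.244 ± 0.249 in WT medium. The groups did not overlap, with KO 2 and WT 2 the highest stimulated clones. Irf4 rose by 4.92 ± 1.20 on the log2 scale in KO clones (adjusted p = 0.0055) and 4.05 ± 1.04 in WT clones (adjusted p = 0.0086). The size of these folds rests on few counts in medium, as the intervals of 2.26 to 7.57 in KO clones and 1.76 to 6.35 in WT clones show. Without WT 2 the WT call ended (2.79, adjusted p = 0.072), and without WT 3 the WT value was 5.58 ± 1.26 (adjusted p = 0.0086).

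Irf9 (ENSMUSG00000002325; chr14:55603571-55610030, plus strand) encodes the DNA-contacting subunit of ISGF3. In stimulated KO clones 1A, 1B and 2, Irf9 had 133, 122 and 146 CPM, against 40.3, 35.0 and 42.4 CPM in the same clones in medium. In stimulated WT clones 1, 2 and 3 it had 129, 145 and 147 CPM, against 28.3, 21.8 and 92.2 CPM in medium. The 6 stimulated libraries were close together, from 122 CPM in KO 1B to 147 CPM in WT 3, whereas in medium WT 3 stood above all others. Irf9 rose by 1.77 ± 0.43 on the log2 scale in KO clones (adjusted p = 0.0059) and 1.56 ± 0.43 in WT clones (adjusted p = 0.013). With the clone block Irf9 had 1.77 ± 0.36 in KO clones (adjusted p = 0.0055) and 1.83 ± 0.38 in WT clones (adjusted p = 0.0061). Without WT 3 the WT value was 2.45 ± 0.16 (adjusted p = 1.6e-05). The WT call ended without WT 1 (1.35, adjusted p = 0.061) and without WT 2 (1.17, adjusted p = 0.058). Ratios by clone were 3.31, 3.48 and 3.45 in KO 1A, 1B and 2, against 4.55, 6.63 and 1.59 in WT 1, 2 and 3. As with Irf7, the WT clones lay on both sides of the narrow KO range.

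Irf2bp2 (ENSMUSG00000051495; chr8:126588296-126593986, minus strand) encodes a nuclear corepressor first found through its binding to IRF2, and it also represses NFAT-driven transcription. KO clones 1A, 1B and 2 had 16, 13.7 and 24.0 CPM of Irf2bp2 under stimulation, against 71.4, 67.5 and 104 CPM in medium. WT clones 1, 2 and 3 had 35.0, 25.3 and 16.7 CPM under stimulation, against 88.2, 131 and 74.6 CPM in medium. Every stimulated library lay below every medium library, and Irf2bp2 was the single member that fell. The log2 fold change was -2.18 ± 0.33 in KO clones (adjusted p = 0.00027) and -1.93 ± 0.32 in WT clones (adjusted p = 0.00068). At most 3.94% of all genes in KO clones and 3.52% in WT clones had a value as low. The stimulated level was 0.224, 0.203 and 0.231 of that in medium in KO 1A, 1B and 2, and 0.397, 0.194 and 0.224 in WT 1, 2 and 3. Of its exon length, 20.5% overlaps the antisense gene Gm26759, which was not analysed here, and without a stated counting strand reads there cannot be assigned to 1 gene.

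Between genotypes, 0 of 9 members were called in medium, beside 1.21% of all genes, and 0 of 9 under stimulation, beside 4.64%. Of all genes, 0.352% were higher and 0.858% lower in KO clones in medium, and 1.13% higher and 3.51% lower under stimulation. DESeq2 called 0 members in both comparisons as well. Of the 10 macrophage markers, Itgam, an integrin chain, was called lower in KO clones in medium (log2 fold change -1.75 ± 0.26, adjusted p = 0.0098), though 68.7% of its exon length overlaps another gene, so its reads cannot be assigned with certainty. Adgre1, the F4/80 antigen, had 16.9 ± 7.35 CPM in KO medium and 119.6 ± 82.7 CPM in WT medium (log2 fold change -2.82 ± 0.60, adjusted p = 0.052), and -2.30 ± 0.58 on the log2 scale under stimulation (adjusted p = 0.051), neither of which was called. The part of these markers in the values of the members was not tested. At an unadjusted p below 0.05 edgeR had 0 members in medium and 1, Irf1, under stimulation. In medium, Irf3 was the single member whose KO and WT libraries did not overlap, where 20.9% of all genes did not; under stimulation 0 members were without overlap, where 24.0% of all genes were.

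Irf1 came nearest to a difference. Under stimulation it averaged 732 ± 139 CPM in KO clones and 1002 ± 190.1 CPM in WT clones (SD, n = 3 each), a log2 fold change of -0.45 ± 0.18 with an interval of -0.85 to -0.06 (adjusted p = 0.18). KO 2, the highest KO clone, overlapped WT 3, the lowest WT clone. In medium the log2 fold change of Irf1 was -0.30 ± 0.19, with an interval of -0.72 to 0.12 (adjusted p = 0.53). Irf2bp2 averaged 17.9 ± 5.40 CPM in stimulated KO clones and 25.7 ± 9.17 CPM in stimulated WT clones, a log2 fold change of -0.53 ± 0.32 (interval -1.24 to 0.18, adjusted p = 0.38). WT 3 lay within the range of the KO clones.

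The other members gave intervals that span 0 in both conditions. Irf3 averaged 59.5 ± 2.57 CPM in KO clones and 52.6 ± 7.20 CPM in WT clones in medium (log2 fold change 0.18, interval -0.07 to 0.43, adjusted p = 0.54), and its interval under stimulation was -0.20 to 0.30. Irf8 had intervals of -0.73 to 0.71 in medium and -0.94 to 0.48 under stimulation. Irf2 had -0.53 to 0.55 in medium and -0.68 to 0.38 under stimulation. None of these intervals shows that KO and WT clones were alike. Irf5 had -0.71 to 0.22 in medium and -0.80 to 0.13 under stimulation, and its estimates of -0.24 and -0.34 were negative in both. Irf9 had -1.22 to 0.66 in medium and -0.99 to 0.86 under stimulation. Irf7 and Irf4 had the widest intervals: Irf7 had -3.48 to 0.91 in medium and -1.96 to 2.23 under stimulation, and Irf4 had -4.52 to 2.02 and -2.23 to 1.46.

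**Figure D4:**
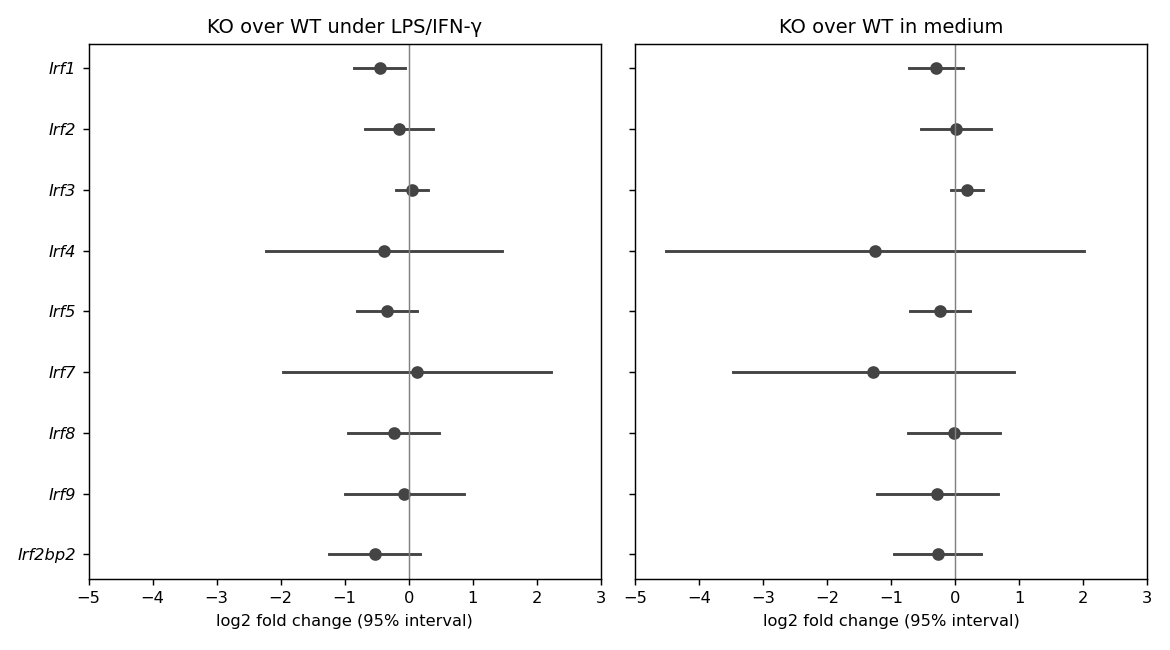
Log2 fold change of each member, KO against WT clones, under LPS/IFN-gamma on the left and in medium on the right, with 95% intervals from the edgeR fit. In medium all intervals span 0, and under stimulation those of all members but Irf1 do. Irf4 and Irf7 have the widest intervals and Irf3 the narrowest.

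Whether KO clones responded otherwise than WT clones was tested directly as an interaction, and 0 of 9 members were called, beside 0% of all genes. Over all genes 0 were called by edgeR, 611 had an unadjusted p below 0.05, DESeq2 called 29, and the fit with clone as a block called 40, none of them a member. DESeq2 gave Irf4 no adjusted p here, so it could not call that gene. No member had an unadjusted p below 0.05. Estimates ran from -0.25 for Irf2bp2 to 1.42 for Irf7, all with an adjusted p of 1.0. The interval of Irf7 was -1.61 to 4.45, while that of Irf3 was -0.49 to 0.23 and that of Irf1 -0.73 to 0.42. These values do not pair the libraries of a clone. With clone as a block Irf7 had 0.46 ± 0.72 (adjusted p = 0.87), and the highest estimate was 1.05 ± 1.39 for Irf4 (adjusted p = 0.85).

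The direction of the genotype difference of Irf7 and Irf9 in medium turned on clone WT 3. In medium Irf7 had 16.2, 16.7 and 21.6 CPM in KO 1A, 1B and 2, against 11.1, 3.45 and 118 CPM in WT 1, 2 and 3. WT 1 and WT 2 thus lay below all KO clones and WT 3 lay above them. With WT 3 the log2 fold change of Irf7 was -1.29 ± 0.99 (adjusted p = 0.63); without it, KO clones were higher by 1.31 ± 0.44 (adjusted p = 0.15), which was not called. Irf9 had 40.3, 35.0 and 42.4 CPM in KO 1A, 1B and 2, against 28.3, 21.8 and 92.2 CPM in WT 1, 2 and 3. Its order was the same, with WT 1 and WT 2 below and WT 3 above the KO clones. The log2 fold change of Irf9 was -0.28 ± 0.42 (adjusted p = 0.84) with WT 3 and 0.64 ± 0.15 (adjusted p = 0.051) without it, just outside the threshold. The interaction turned too. Irf7 had 1.42 ± 1.36 with WT 3 and -0.38 ± 0.57 without it (adjusted p = 1), and Irf9 had 0.21 ± 0.60 with WT 3 and -0.67 ± 0.20 without it (adjusted p = 0.5).

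The same medium library held the highest level of 11 of the 12 genes commonly used as IRF3, IRF7 or ISGF3 targets, all but Ccl5, and lay at least 2-fold above the next library for 9 of them. At that margin it stood above the rest for 3 of the 9 members, Irf4, Irf7 and Irf9, and for 0.744% of all genes. For Irf4 this rests on 8 counts in WT 3, against 3 in KO 2, the next library. Usp18, which removes the ubiquitin-like ISG15 and restrains interferon receptors, had 9.22, 11.1 and 9.21 CPM in KO 1A, 1B and 2, against 5.51, 2.43 and 68.2 CPM in WT 1, 2 and 3. Mx2, an antiviral dynamin-like GTPase, had 1.42, 1.76 and 1.64 CPM in KO 1A, 1B and 2, against 1.09, 0.157 and 14 CPM in WT 1, 2 and 3. In each, WT 2 had the lowest and WT 3 by far the highest level. Stat2, a partner of IRF9 in ISGF3, was also highest in WT 3. It had 18.1, 21.6 and 15.8 CPM in KO 1A, 1B and 2, against 19.3, 20.4 and 25.4 CPM in WT 1, 2 and 3, a margin well under that of Usp18. Under stimulation WT 3 was highest of 6 libraries for 3 of the 9 members, 9 of the 12 targets and 16.3% of all genes. The part of these target genes in the Irf7 and Irf9 results was not tested.

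**Figure D5:**
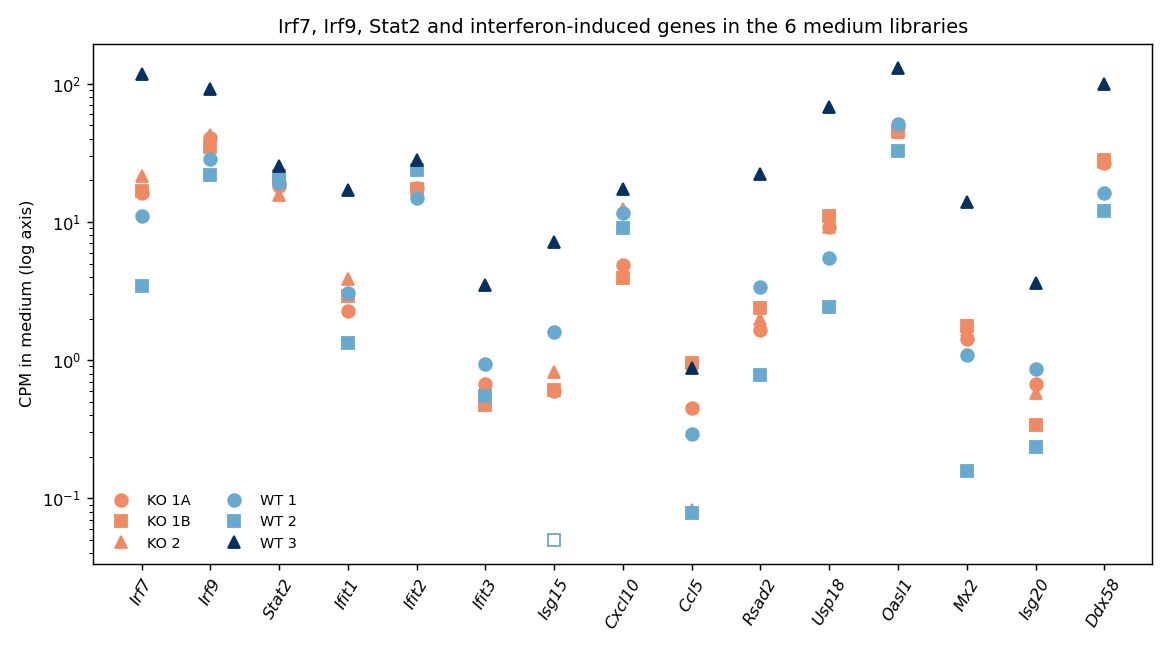
Levels in CPM on a log axis of Irf7, Irf9, Stat2 and the 12 target genes in the 6 medium libraries, KO clones 1A, 1B and 2 and WT clones 1, 2 and 3. The open Isg15 square marks 0 counts in WT 2. WT 3 is the highest library for every gene drawn but Ccl5.

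The genes around the IRFs, in lists chosen with earlier results of these data known, moved with stimulation in both directions. Of 22 kinases, adaptors and sensors upstream of IRF3, IRF5 and IRF7, 13 rose and 5 fell in each genotype, with a median log2 fold change of 0.83 in KO clones and 1.07 in WT clones, against -0.01 for all genes in each. That is 18 of 22 genes called, beside the 54.3% of all genes in KO clones and 47.4% in WT clones. Ikbke, a kinase that phosphorylates IRF3 and IRF7, rose by 4.06 ± 0.37 in KO clones (adjusted p = 1.0e-05) and 4.85 ± 0.38 in WT clones (adjusted p = 5.7e-06). Ifih1, a cytosolic sensor of double-stranded RNA, rose by 5.02 ± 0.55 in KO clones and 4.50 ± 0.54 in WT clones. Tlr4, the LPS receptor, fell to 30.9 ± 10.9 CPM in stimulated KO clones, against 184 ± 68.7 CPM in KO medium (SD, n = 3 each), and to 22.9 ± 6.93 CPM in stimulated WT clones, against 83.0 ± 12 CPM in WT medium. Its log2 fold change was -2.57 ± 0.32 in KO clones (adjusted p = 8.5e-05) and -1.86 ± 0.32 in WT clones (adjusted p = 0.00081). Tlr7, an endosomal sensor of single-stranded RNA, had -0.84 ± 0.19 in KO clones (adjusted p = 0.0038) and -0.78 ± 0.19 in WT clones (adjusted p = 0.0064). With library totals alone the list had 11 higher and 9 lower genes in KO clones, and 12 higher and 8 lower in WT clones.

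Of 10 genes for interferons, their receptors and the kinases and STATs between them, 6 rose and 1 fell in KO clones and 6 rose and 0 fell in WT clones, with medians of 0.57 in KO clones and 0.59 in WT clones. That is 7 of 10 genes called in KO clones and 6 of 10 in WT clones, beside 54.3% and 47.4% of all genes. With the clone block 8 rose and 1 fell in WT clones. Ifnb1, the interferon-beta gene and a target of IRF3 and IRF7, had 599 counts over 3 stimulated KO libraries and 1 over 3 KO medium libraries, and 1002 over stimulated WT and 4 over WT medium libraries, and was called higher in each genotype. Stat2 rose by 4.33 ± 0.25 in KO clones (adjusted p = 4.3e-07) and 3.96 ± 0.24 in WT clones (adjusted p = 8.9e-07). Ifngr1, the ligand-binding chain of the IFN-gamma receptor, had -0.69 ± 0.21 in KO clones (adjusted p = 0.016) and -0.42 ± 0.21 in WT clones (adjusted p = 0.12, or 0.0091 with clone as a block). Its KO call ended without any 1 of the 3 KO clones, at values of -0.74 without KO 1A, -0.70 without KO 1B and -0.64 without KO 2.

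Among 8 DNA-binding partners and coactivators, 5 rose and 1 fell in each genotype, with medians of 1.12 in KO clones and 1.14 in WT clones. Over all genes, 54.3% were called in KO clones and 47.4% in WT clones. Batf2, a basic leucine zipper protein that pairs with IRF1 in activated mouse macrophages, rose by 7.33 ± 0.32 in KO clones (adjusted p = 9.5e-08) and 7.34 ± 0.30 in WT clones (adjusted p = 6.0e-08). Nfatc1, a calcium-regulated factor, had -1.18 ± 0.44 in KO clones (adjusted p = 0.043) and -1.67 ± 0.44 in WT clones (adjusted p = 0.01). The KO call of Nfatc1 ended without any 1 clone other than WT 3 (adjusted p of 0.054 to 0.14), and the WT call without WT 2 (adjusted p = 0.078). All 4 genes listed beside Irf2bp2 fell in each genotype, where 27.6% of all genes were called lower in KO clones and 23.6% in WT clones. The medians of the list were -1.41 in KO clones and -0.97 in WT clones. Its genes were the Irf2bp2 paralogs Irf2bp1 and Irf2bpl, Vgll4, a transcriptional cofactor, and Nfatc2, the NFAT factor that IRF2BP2 represses. Nfatc2 fell to 1.00 ± 0.667 CPM in stimulated KO clones, against 5.13 ± 1.27 CPM in KO medium, and to 1.58 ± 0.448 CPM in stimulated WT clones, against 7.59 ± 0.685 CPM in WT medium. Vgll4 had -1.61 ± 0.22 in KO clones (adjusted p = 0.00012) and -1.0 ± 0.21 in WT clones (adjusted p = 0.003).

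Of 10 genes that restrain IRFs or interferon signalling, 7 rose and 1 fell in KO clones and 8 rose and 1 fell in WT clones, with medians of 1.73 in KO clones and 1.36 in WT clones. Over all genes, 54.3% were called in KO clones and 47.4% in WT clones. Socs1, an inhibitor of JAK kinases, rose by 5.64 ± 0.36 in KO clones (adjusted p = 8.0e-07) and 6.59 ± 0.36 in WT clones (adjusted p = 4.8e-07). Usp18 rose by 6.14 ± 1.19 in KO clones (adjusted p = 0.0015) and 4.68 ± 1.10 in WT clones (adjusted p = 0.0057). Without WT 3 the WT value of Usp18 was 6.51 ± 0.49, and with the clone block it was 5.50. With the clone block the list had 8 higher and 2 lower genes in KO clones, and 8 higher and 1 lower in WT clones. Trim28, a corepressor and SUMO ligase, fell by a little under 1 on the log2 scale, at -0.87 ± 0.10 in KO clones (adjusted p = 3.9e-05) and -0.83 ± 0.10 in WT clones (adjusted p = 7.3e-05).

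Target genes were counted by the factor they are commonly assigned to, and several answer to more than 1 IRF. Genes such as Usp18, Ddx58, Stat2, Cybb and Il12b each stand in 2 of the lists. Over all genes, 26.7% were called higher in KO clones and 23.8% in WT clones. All 12 genes used as IRF3, IRF7 or ISGF3 targets rose in each genotype, with a median of 7.11 in KO clones and 5.54 in WT clones, or 6.63 in WT clones without WT 3. Ccl5, a chemokine, rose by 9.94 ± 0.55 in KO clones (adjusted p = 4.4e-07) and 8.82 ± 0.54 in WT clones (adjusted p = 1.1e-06), and Ifit1, which binds foreign RNA caps, by 8.08 ± 1.04 and 6.99 ± 0.98 in KO and WT clones. Without WT 3 the WT value was 9.75 ± 0.54 for Ccl5 and 8.48 ± 0.92 for Ifit1, and with the clone block that of Ifit1 was 7.33. Of 12 IRF1 targets, 11 rose and 0 fell in KO clones, all but Ciita, and 12 rose in WT clones. Ciita, the regulator of class II antigen presentation genes, was called in KO clones with the clone block (adjusted p = 0.00079). The WT count was 10 without WT 3. Nos2, the inducible nitric oxide synthase, rose by 11.12 ± 0.49 in KO clones (adjusted p = 1.0e-07) and 10.70 ± 0.48 in WT clones (adjusted p = 1.3e-07), and Il27, a cytokine subunit gene, by 11.20 ± 0.74 and 10.47 ± 0.71 in KO and WT clones. The median of that list was 4.82 in KO clones, or 4.28 with Ciita and Il12b held at a floor of 3 counts over the medium group, and 4.80 in WT clones.

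Of 8 genes used as targets of IRF8 with PU.1, 4 rose and 0 fell in each genotype, with medians of 1.45 in KO clones and 1.41 in WT clones. The share called is close to the 54.3% of all genes called in either direction in KO clones and 47.4% in WT clones. Called higher were 26.7% of all genes in KO clones and 23.8% in WT clones. The clone block gave 6 higher and 1 lower in KO clones, and 6 higher and 2 lower in WT clones. Library totals alone gave 3 higher and 1 lower in KO clones. The count was 2 in KO clones when any 1 of KO 1A, 1B and 2 was left out, and 2 in WT clones without WT 3. Pml, a nuclear body protein, rose by 2.90 ± 0.36 in KO clones (adjusted p = 7.5e-05) and 2.35 ± 0.35 in WT clones (adjusted p = 0.00033). Il12b, the p40 subunit of interleukin-12 and interleukin-23, had 366 counts over 3 stimulated KO libraries and 0 over 3 KO medium libraries, and 123 over stimulated WT and 4 over WT medium libraries. It was called higher in each genotype, and the WT call ended without WT 2 or without WT 3. Of 4 genes linked to IRF4 in alternatively activated macrophages, Mrc1, Ccl17 and Ccl22 rose in each genotype. Arg1, arginase, had 13 counts over 3 stimulated KO libraries and 2 over 3 KO medium libraries, and 28 over stimulated WT and 9 over WT medium libraries, and was not called, but with the clone block it was called higher in each (adjusted p = 0.029 in KO clones and 0.024 in WT clones). Ccl22, a chemokine, had 10983 counts over 3 stimulated KO libraries and 3 over 3 KO medium libraries, and 4321 over stimulated WT and 4 over WT medium libraries, and Ccl17, its neighbour in the genome and function, had 200 counts over 3 stimulated KO libraries and 0 over 3 KO medium libraries, and 19 over stimulated WT and 0 over WT medium libraries. Mrc1, the macrophage mannose receptor, had 25 counts over 3 stimulated KO libraries and 2 over 3 KO medium libraries, and 221 over stimulated WT and 11 over WT medium libraries.

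Between genotypes 0 of 84 pathway genes tested were called in medium, beside 1.21% of all genes, and 5 (5.95%) under stimulation, beside 4.64%, so the share under stimulation was close to that of all genes. In medium DESeq2 called 3, Lyn and Slc11a1 lower and Tlr4 higher, and edgeR called Slc11a1 without WT 3 and Klf4 without WT 1. Under stimulation DESeq2 called Tbkbp1, Ifngr2 and Ccl5 besides the 5, and edgeR without WT 3 called Tbkbp1, Ccl5, Il27 and Slc11a1 besides 4 of them. Of the 8 partners, Batf2 was lower, at 85.7 ± 5.91 CPM in KO clones and 204 ± 49.0 CPM in WT clones (SD, n = 3 each; log2 fold change -1.25 ± 0.22, adjusted p = 0.012). Of the 12 IRF1 targets, Il18bp, which encodes a decoy for interleukin-18, was lower, at 5.21 ± 0.470 CPM in KO clones and 17.1 ± 11.9 CPM in WT clones (log2 fold change -1.72 ± 0.42, adjusted p = 0.045). The SD of Il18bp in WT clones was large beside its mean, and without WT 3 its value was -1.0 (adjusted p = 0.075). The 4 IRF4-linked genes split. Mrc1 was lower, at 0.859 ± 0.212 CPM in KO clones and 7.0 ± 3.35 CPM in WT clones (log2 fold change -3.01 ± 0.52, adjusted p = 0.012), whereas Ccl22 was higher, at 377 ± 22.3 CPM in KO clones and 138 ± 58.8 CPM in WT clones (log2 fold change 1.45 ± 0.28, adjusted p = 0.018). Ccl17 was also higher, at 6.91 ± 1.33 CPM in KO clones and 0.602 ± 0.631 CPM in WT clones (log2 fold change 3.49 ± 0.64, adjusted p = 0.032). Irf4 itself was not called and its interval under stimulation was -2.23 to 1.46. With KO 1A and 1B summed as 1 clone, all 5 calls were lost (adjusted p of 0.11 for Batf2, 0.23 for Il18bp, 0.11 for Mrc1, 0.15 for Ccl17 and 0.11 for Ccl22), with values close to the above. Leaving out KO 1A or KO 1B also ended all 5, and leaving out KO 2 ended those of Batf2, Il18bp, Ccl17 and Ccl22. The call of Ccl17 also ended without WT 1, and those of Il18bp and Ccl22 without WT 2. Tbkbp1 was called without WT 1, and Ifnb1 and Il18 without WT 2. In the interaction 0 pathway genes were called by edgeR, with or without the clone block, or by DESeq2.

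The genes most like each member over the 12 libraries were found among 9395 protein-coding genes with a mean of at least 5 CPM. The measure was the root mean square difference of log2 CPM after each gene's own mean was taken off, so for a given member a lower value is a closer pattern. Changes were not scaled by their size, so members that move little get low values, and values of different members cannot be compared. Irf1 lay nearest to Socs3 and Socs1, inhibitors of JAK-STAT signalling, at 0.361 for each. Irf7 lay nearest to Ifi44 (0.201) and Lgals9 (0.307), both interferon-inducible, and Irf9 to Ifitm3 (0.300), which restricts viral entry, and Psmb8 (0.335), an immunoproteasome subunit. Irf8 was closest to Mthfs (0.306), an enzyme of folate metabolism, and Mndal (0.394), of the IFI200 family. Irf4, with its low counts, lay nearest to Errfi1 (0.553) and Gpr84 (0.575). Those of Irf2 were Tgfb1 (0.132) and Diaph1 (0.138), those of Irf5 Mcur1 (0.149) and Trappc4 (0.161), those of Irf3 Dmap1 (0.0765) and Mfsd10 (0.0806), and those of Irf2bp2 Colec12 (0.235) and Ankrd24 (0.237). Among the members themselves, Irf2 and Irf5 were nearest to each other (0.384), as were Irf1 and Irf8 (0.864).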

How the data were processed

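Total RNA of 12 libraries was sequenced, and the authors deposited 1 table of raw gene counts per Ensembl gene. Per the submitters' processing notes the build was GRCm38 (mm10), and DESeq2 is named there without a version or a role. Aligner, counter and counting strand: not given in the sources used here. Of its 12483 genes GENCODE M21 named 12305 and left 178 unnamed. Its exon lengths, merged over all transcripts of a gene, gave CPM per kilobase, and 66 counts stood in exponent form.

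edgeR 4.0.16 in R 4.3.3 was run on all 12 libraries with 1 mean per group: filterByExpr kept 12231 genes, TMM scaled the libraries, and a robust quasi-likelihood fit left 8 residual degrees of freedom. P-values were Benjamini-Hochberg adjusted over all genes tested, with calls below 0.05. SEs come from the quasi-likelihood F, and intervals are 95%. The coefficient of variation between clones was 23.6%, and 11.7% with clone as a block (4 residual degrees of freedom). The labels give each clone 1 library per condition, so clones pair the responses and the interaction. The 2 libraries of a clone deviated together, with r of 0.642, 0.70 and 0.62 for WT 1, 2 and 3. For KO 1A, 1B and 2 r was 0.321, 0.287 and 0.508. Against other clones r reached 0.274 (KO 1A) and 0.182 (KO 1B), not far below their own, so pairing showed little there. It was negative for the rest. Deviations were taken from the mean of 3 libraries and sum to 0. A positive own r thus pushes r against other clones below 0, and those negative values are no separate evidence of pairing. The scripts were tested on simulated data.

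Named genes were all members, up to 2 highest and 2 lowest called genes per list in the KO response, list genes called between genotypes, and 2 nearest patterns per member. Values in medium for Usp18, Mx2 and Stat2 were chosen after they were seen, as were Arg1, Ciita, the cell markers, genes called under an alternative alone, and all alternatives for list genes. The members and the 10 pathway lists (92 genes) were chosen with earlier results of these data known. Alternatives were RLE factors, library totals alone, DESeq2 1.42.0, no filter, the clone block, KO 1A and 1B summed, and leaving out each clone.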

Additional observations from a re-analysis of the deposited data

How the results depend on the processing

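Of 108 values of members over the alternatives in the KO response, 105 kept their direction and their side of the threshold, and of 108 in the WT response 101 did; no member called under TMM scaling turned direction. Library totals alone lowered the share of calls that were higher to 24.5% in KO clones and 23.2% in WT clones, against 49.1% and 50.3%, and gave Irf3 -0.33 in WT clones and Irf8 0.048 for KO against WT in medium. Genes called for KO against WT in medium numbered 148, against 622 with DESeq2, 16 with KO 1A and 1B summed, and 14 to 419 leaving out 1 clone (14 without KO 1A, 24 without KO 1B, 419 without WT 3). Under stimulation there were 567, against 1188 with DESeq2, 73 with KO 1A and 1B summed, and 48 to 972 leaving out 1 clone (48 without KO 1A, 69 without KO 1B, 287 without KO 2, 972 without WT 3). The interaction had 0, against 29 with DESeq2, 40 with the replicate block, and 0 to 4 leaving out 1 clone (1 without WT 2, 4 without WT 3). No member was called in these 3 comparisons under any alternative, though DESeq2 gave Irf4 no adjusted p in the interaction. The cause of these shifts was not tested. With KO 1A and 1B summed, Irf2 had -0.080 for KO against WT in medium. With clone as a block Irf9 had -0.064 in the interaction, and no call of a member changed; KO against WT within 1 condition has 1 library per clone, so no block applies there. Leaving out 1 clone turned uncalled values within these ranges: Irf3 -0.061 to 0.10 in the WT response; Irf2 -0.11 to 0.19, Irf7 -1.83 to 1.31, Irf8 -0.29 to 0.15 and Irf9 -0.63 to 0.64 for KO against WT in medium; Irf2 -0.32 to 0.056, Irf3 -0.0062 to 0.12, Irf4 -1.23 to 0.82, Irf7 -0.21 to 0.93 and Irf8 -0.52 to 0.041 under stimulation. In the interaction they were Irf1 -0.38 to 0.050, Irf2 -0.37 to 0.17, Irf4 -0.66 to 2.12, Irf5 -0.24 to 0.12, Irf7 -0.38 to 1.69, Irf9 -0.67 to 0.60 and Irf2bp2 -0.51 to 0.11. Depth limits Irf4 most, with 4 counts over the KO and 11 over the WT medium libraries.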
